A study of Lotus japonicus with 16 samples.

Results

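In Lotus japonicus, a model legume, 53 genes were listed by the authors as changed by low phosphate in roots of warm plants and by warmth in shoots of plants with sufficient phosphate, and not in the matching lists of roots at the favorable temperature and shoots at low phosphate. They were selected by their place in those lists: present in the list of roots at the high temperature and in the list of shoots at sufficient phosphate, and absent from the list of roots at the favorable temperature and from the list of shoots at low phosphate. They are 53 of the 3958 genes found in any of the 4 lists, and 53 of the 163 genes (32.5%) that the first pair of lists has in common, or 6.503% of the root list of 815 and 3.18% of the shoot list of 1667. In 32 of the 53, the transcript fell in warm roots when phosphate was low and rose in shoots with warmth when phosphate was sufficient. All 53 are annotated as protein-coding, and the gene table used here names each only by a locus number, so no function is given for any of them.

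Plants short of phosphate turn on a starvation programme in which PHR transcription factors, held back by SPX proteins while phosphate is plentiful, raise transcripts for phosphate uptake, for release of phosphate from organic compounds and for replacement of membrane phospholipids. Roots take up the phosphate and export it to the shoot, and shoot signals report the plant's phosphate status back to the root. Moderate warmth, below the range of heat shock, changes plant growth through PIF transcription factors and the light receptor phytochrome B, and it also alters the demand for nutrients. This is background and was not measured here.

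The plants were of accession MG-20 and grew in hydroponics for 3 weeks under treatment. Low phosphate (-P) was 6.4 µM and sufficient phosphate (+P) was 64 µM. High temperature (HT) was 30 °C by day and 29 °C by night, and favorable temperature (FT) was 23 °C by day and 22 °C by night. The root comparison set -P-HT whole roots against +P-HT whole roots. The shoot comparison set +P-HT whole shoots against +P-FT whole shoots. Each group had 2 libraries, where a replicate was a pool of 3 plants and 5 replicates were grown per treatment, per the labels' protocols. The replicate unit behind the authors' standard errors and adjusted p-values was thus such a pool. Those errors are estimates from the authors' DESeq2 model, and a gene's own spread between its pools is not shown. The other pair of lists, used here only to choose the genes, set -P-FT roots against +P-FT roots and -P-HT shoots against -P-FT shoots. The question behind the series is how moderate warming affects the response of the plants to phosphorus shortage.

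The lists hold genes that changed at least 2-fold with a DESeq2 adjusted p under 0.05, and no value per library. Whether the libraries of a pair of groups overlap for a gene can therefore not be shown, and tissue identity could not be checked on marker genes. "Rose" and "fell" follow the authors' up- and down-regulated columns, taken as the direction in -P-HT roots and in +P-HT shoots. The lists do not state this orientation. Levels below are normalised counts (counts divided by library size factors) derived for each group from the authors' base mean and fold. They are not divided by gene length and were normalised separately in each list, so they compare the groups of 1 list and not genes or tissues. In whole organs, fewer cells of a type and less RNA per cell cannot be told apart.

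In roots, 40 of the 53 genes fell at low phosphate and 13 rose. The authors' root list at the high temperature held 4.05% of the 20129 genes tested, with 1.78% that fell and 2.27% that rose. In shoots, 37 of the 53 genes rose with warmth and 16 fell. The authors' shoot list at sufficient phosphate held 8.28% of the 20144 genes tested, with 4.51% that rose and 3.77% that fell. Because the rule used both of these contrasts, the counts describe the genes chosen and nothing is read from those percentages. Taken by both tissues, 32 genes (60.4%) fell in -P-HT roots and rose in +P-HT shoots, 8 (15.1%) rose in roots and fell in shoots, 5 (9.43%) rose in both, and 8 (15.1%) fell in both. The treatment +P-HT was in both comparisons, as the one that low phosphate was set against in roots and as the warm one in shoots. The 32 genes that fell in roots and rose in shoots were thus, in this orientation, the ones with the higher level in +P-HT in each tissue, and the 8 with the reverse pattern had the lower level in +P-HT in each tissue. The libraries themselves were different ones, from roots and from shoots. Over the 53 genes the sizes of both absolute log2 fold changes were weakly related (Spearman's rho 0.21, n = 53 genes, a description across genes that share libraries).

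**Figure D1:**
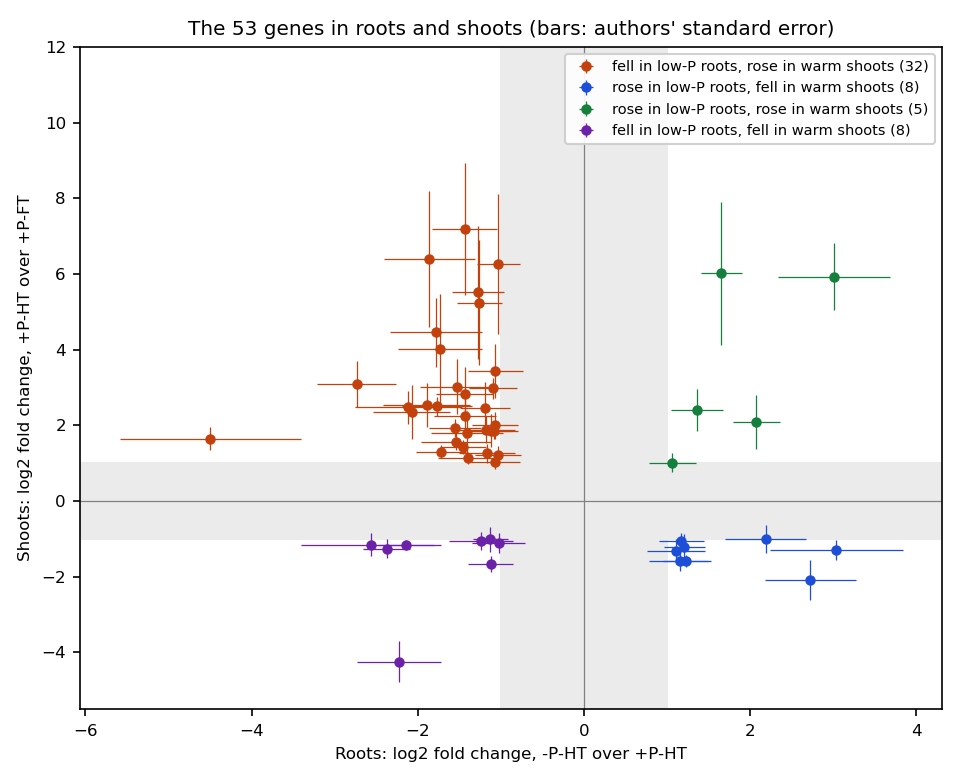
Log2 fold change in roots (-P-HT over +P-HT, horizontal axis) and in shoots (+P-HT over +P-FT, vertical axis) of the 53 genes, each a point with the authors' standard errors as bars. Grey bands mark absolute log2 fold changes under 1, which the lists leave out, and 32 points lie in the upper left corner with lower levels in -P-HT roots and higher levels in +P-HT shoots.

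Among the 32 genes that fell in roots and rose in shoots, LOC130732628 had the largest change common to both tissues, ranking genes by the smaller of their root and shoot absolute log2 fold changes, as in the other classes below. Its level was 201 normalised counts in -P-HT roots and 1339 in +P-HT roots, a log2 fold change of -2.74 ± 0.47 (SE, adjusted p = 8.41e-07 by DESeq2) per the authors' deposited table. In shoots it stood at 2898 normalised counts in +P-HT and 338 in +P-FT, with a log2 fold change of 3.10 ± 0.61 (SE, adjusted p = 7.98e-06 by DESeq2) per the authors' deposited table. LOC130732628 thus changed more than 4-fold in each organ, falling with low phosphate in roots and rising with warmth in shoots. LOC130739681 had 11.8 normalised counts in -P-HT roots against 51.2 in +P-HT roots, and 154 in +P-HT shoots against 27.7 in +P-FT shoots. Its log2 fold changes were -2.12 ± 0.64 (SE) in roots and 2.48 ± 0.44 (SE) in shoots per the authors' deposited tables. LOC130717511 was the third to pass an absolute log2 fold change of 2 in both organs. It had 34.3 normalised counts in -P-HT roots against 144 in +P-HT roots, and 41.4 in +P-HT shoots against 8.11 in +P-FT shoots. On the log2 scale the changes were -2.07 ± 0.47 (SE) and 2.35 ± 0.71 (SE) per the authors' deposited tables.

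The next 5 genes of this class fell by less than 4-fold in roots and rose by more than 4-fold in shoots. LOC130748647 had 35.8 normalised counts in -P-HT roots and 123 in +P-HT roots, and rose steeply in shoots, with 1567 in +P-HT and 71.3 in +P-FT. The authors' deposited tables give it log2 fold changes of -1.78 ± 0.55 (SE) in roots and 4.46 ± 0.90 (SE, adjusted p = 1.55e-05 by DESeq2) in shoots. For LOC130746403 the shoot change was the more precise one, at 861 normalised counts in +P-HT and 152 in +P-FT, or 2.50 ± 0.25 (SE, adjusted p = 1.1e-20 by DESeq2) on the log2 scale per the authors' deposited table. Its root level was 51.4 normalised counts in -P-HT and 175 in +P-HT, which the authors' deposited table gives as -1.77 ± 0.42 (SE). LOC130739894 had log2 fold changes of -1.89 ± 0.52 (SE) in roots and 2.53 ± 0.58 (SE) in shoots per the authors' deposited tables, at 35.6 normalised counts in -P-HT roots against 132 in +P-HT roots and 82.7 in +P-HT shoots against 14.3 in +P-FT shoots. A pair of the 8 leading genes were close to undetected in +P-FT shoots. LOC130732001 had 15.7 normalised counts in +P-HT shoots against a level fitted under 1 in +P-FT shoots, and 19.8 in -P-HT roots against 71.8 in +P-HT roots. LOC130749400 had 16.3 normalised counts in +P-HT shoots against 1.02 in +P-FT shoots, and 33.0 in -P-HT roots against 109 in +P-HT roots. With so few counts their shoot folds carry large errors, 6.40 ± 1.80 (SE) and 4.01 ± 1.48 (SE) on the log2 scale per the authors' deposited table.

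The other 24 genes of the class had smaller absolute log2 fold changes in at least 1 organ. LOC130746853 had the third highest base mean of the 53 in roots, and LOC130739583 the third highest in shoots (counts not divided by length). LOC130746853 had 4095 normalised counts in -P-HT roots against 10798 in +P-HT roots, and 2598 in +P-HT shoots against 1179 in +P-FT shoots. The authors' deposited tables give it -1.40 ± 0.36 (SE) in roots and 1.14 ± 0.16 (SE) in shoots on the log2 scale. LOC130739583 had 1424 normalised counts in -P-HT roots against 3013 in +P-HT roots, and 6090 in +P-HT shoots against 1674 in +P-FT shoots, for log2 fold changes of -1.08 ± 0.29 (SE) and 1.86 ± 0.23 (SE) per the authors' deposited tables. Both genes were well counted in each organ and rose by less in shoots than the middle gene of the class. The class had a median log2 fold change of -1.43 in roots and 2.41 in shoots, and 27 of the 32 genes had the larger absolute fold in shoots.

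Some genes of this class were singled out after their values were seen. LOC130741286 had the largest root change of the 53, at 1.50 normalised counts in -P-HT roots and 33.8 in +P-HT roots, with a log2 fold change of -4.50 ± 1.09 (SE, adjusted p = 0.00168 by DESeq2) per the authors' deposited table. In shoots it had 297 normalised counts in +P-HT and 94.4 in +P-FT. LOC130711011 had the shoot rise with the lowest adjusted p of the class, at 847 normalised counts in +P-HT and 108 in +P-FT (log2 fold change 2.98 ± 0.29, SE, with adjusted p = 5.09e-23 by DESeq2 per the authors' deposited table). Its root level was 2609 normalised counts in -P-HT and 5563 in +P-HT, close to the least change that the lists admit. LOC130734219, LOC130716735 and LOC130726506 join LOC130732001 as genes whose level in +P-FT shoots was fitted under 1. They reached 27.3, 23.4 and 14.3 normalised counts in +P-HT shoots, so these rises start from a level that the data do not resolve. In roots the same genes were readily counted, at 54.8, 133 and 239 normalised counts in -P-HT against 148, 323 and 488 in +P-HT. LOC130743180 had 94.5 normalised counts in +P-HT shoots against 2.49 in +P-FT shoots, and 611 in -P-HT roots against 1462 in +P-HT roots.

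A further 6 genes of the class, also singled out after their values were seen, were well counted in both organs. LOC130738178 had 1217 normalised counts in -P-HT roots against 3341 in +P-HT roots, and 3077 in +P-HT shoots against 1142 in +P-FT shoots. LOC130737945 had 1557 normalised counts in -P-HT roots against 4549 in +P-HT roots, and 2195 in +P-HT shoots against 743 in +P-FT shoots. Both changed between 2- and 3-fold in each organ, and the authors' deposited tables give LOC130738178 adjusted p = 9.28e-06 in roots and 2.67e-12 in shoots (DESeq2). LOC130725878 had 394 normalised counts in -P-HT roots against 1300 in +P-HT roots, and 1002 in +P-HT shoots against 407 in +P-FT shoots. LOC130723665 had 551 normalised counts in -P-HT roots against 1154 in +P-HT roots, and 4595 in +P-HT shoots against 2237 in +P-FT shoots. LOC130715814 had 752 normalised counts in -P-HT roots against 1539 in +P-HT roots, and 1343 in +P-HT shoots against 577 in +P-FT shoots. Of these genes, LOC130723665 lay close to the fold limit in both organs and LOC130715814 in roots. LOC130727948 had a small root change, at 683 normalised counts in -P-HT and 1431 in +P-HT, and a large shoot change, at 2372 in +P-HT and 219 in +P-FT (log2 fold change 3.44 ± 0.72, SE, per the authors' deposited table). The last 10 genes of the class had log2 fold changes of -1.55 to -1.07 in roots and 1.26 to 3.02 in shoots per the authors' deposited tables, and their levels are in the plot of derived levels.

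The 8 genes with the reverse pattern rose in -P-HT roots and fell in +P-HT shoots. LOC130746932 had the highest shoot base mean of the 53, at 28210 normalised counts in +P-HT and 85092 in +P-FT. The authors' deposited table gives this fall as -1.59 ± 0.15 (SE, adjusted p = 5.29e-23 by DESeq2) on the log2 scale. In roots it had 13558 normalised counts in -P-HT and 5817 in +P-HT, a log2 fold change of 1.22 ± 0.27 (SE, adjusted p = 0.000421 by DESeq2) per the authors' deposited table. Both of its changes rest on high counts. LOC130745808 had the largest change common to both organs in this class. It stood at 109 normalised counts in -P-HT roots against 16.4 in +P-HT roots, and at 25.8 in +P-HT shoots against 109 in +P-FT shoots, for log2 fold changes of 2.72 ± 0.54 (SE) and -2.08 ± 0.53 (SE) per the authors' deposited tables. LOC130739966 rose to 44.4 normalised counts in -P-HT roots against 5.40 in +P-HT roots, the largest root rise of the 53 (log2 fold change 3.04 ± 0.80, SE, per the authors' deposited table). Its shoot level was 120.5 normalised counts in +P-HT and 296 in +P-FT.

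LOC130725324 also rose more than 4-fold in roots, at 451 normalised counts in -P-HT and 99.03 in +P-HT. Its shoot change was the smallest of the 53, at 106 normalised counts in +P-HT and 211 in +P-FT, with a log2 fold change of -1.002 ± 0.36 (SE, adjusted p = 0.0347 by DESeq2) per the authors' deposited table. The remaining 4 genes of the class rose by 1.11 to 1.21 in roots on the log2 scale per the authors' deposited table. LOC130717820 had 456 normalised counts in -P-HT roots against 198 in +P-HT roots, and 75.02 in +P-HT shoots against 174 in +P-FT shoots. LOC130724134 had 476 normalised counts in -P-HT roots against 213 in +P-HT roots, and 144 in +P-HT shoots against 430 in +P-FT shoots. LOC130710529 had 719 normalised counts in -P-HT roots against 333 in +P-HT roots, and 87.3 in +P-HT shoots against 219 in +P-FT shoots. These genes changed between 2- and 3-fold in each organ. LOC130729543 likewise had 371 normalised counts in -P-HT roots against 165 in +P-HT roots, and 472 in +P-HT shoots against 974 in +P-FT shoots.

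A set of 5 of the 53 genes rose both in -P-HT roots and in +P-HT shoots. LOC130732582 had the largest change common to both organs among them, at 51.5 normalised counts in -P-HT roots against 6.40 in +P-HT roots, and 341 in +P-HT shoots against 5.57 in +P-FT shoots. Its log2 fold changes were 3.01 ± 0.68 (SE, adjusted p = 0.000509 by DESeq2) in roots and 5.93 ± 0.90 (SE, adjusted p = 1.63e-09 by DESeq2) in shoots per the authors' deposited tables. Its counts were low in +P-HT roots and in +P-FT shoots alike. LOC130746189 had 677 normalised counts in -P-HT roots against 161 in +P-HT roots, and 39.1 in +P-HT shoots against 9.18 in +P-FT shoots. The authors' deposited tables give 2.07 ± 0.28 (SE, adjusted p = 5.02e-11 by DESeq2) in roots and 2.09 ± 0.72 (SE, adjusted p = 0.0244 by DESeq2) in shoots on the log2 scale, so the root change was the better resolved. LOC130745631 had 835 normalised counts in -P-HT roots against 265.5 in +P-HT roots (log2 fold change 1.65 ± 0.24, SE, per the authors' deposited table), and 12.1 in +P-HT shoots against a level fitted under 1 in +P-FT shoots. LOC130745829 had 404 normalised counts in -P-HT roots against 157 in +P-HT roots, and 81.3 in +P-HT shoots against 15.3 in +P-FT shoots. LOC130720359, with 2971 normalised counts in -P-HT roots against 1421 in +P-HT roots and 376 in +P-HT shoots against 186 in +P-FT shoots, was just over the fold limit in both organs.

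A further 8 genes fell in both organs. LOC130736982 had the largest change common to both organs in this class, at 73.8 normalised counts in -P-HT roots against 345 in +P-HT roots, and 7.43 in +P-HT shoots against 141 in +P-FT shoots. In the authors' deposited tables its log2 fold changes were -2.22 ± 0.51 (SE) in roots and -4.25 ± 0.54 (SE, adjusted p = 3.81e-13 by DESeq2) in shoots. That shoot fall was the largest of the 53. LOC130732007 had 158 normalised counts in -P-HT roots against 819 in +P-HT roots, and 118 in +P-HT shoots against 283 in +P-FT shoots. Its root fall had the lowest adjusted p of any of the 53 in roots (log2 fold change -2.38 ± 0.29, SE, with adjusted p = 4.86e-14 by DESeq2 per the authors' deposited table). LOC130720633 had 330.1 normalised counts in -P-HT roots against 1459.7 in +P-HT roots, and 2818 in +P-HT shoots against 6287 in +P-FT shoots. The authors' deposited tables give it -2.14 ± 0.33 (SE) in roots and -1.16 ± 0.14 (SE) in shoots on the log2 scale.

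LOC130717137 had the highest root base mean of the 53, at 7379 normalised counts in -P-HT and 17412 in +P-HT, and 283 in +P-HT shoots against 585 in +P-FT shoots. LOC130749658 had a large root fold at few counts, 6.06 normalised counts in -P-HT roots against 35.8 in +P-HT roots, with the adjusted p nearest the limit of the root list (log2 fold change -2.56 ± 0.84, SE, with adjusted p = 0.0461 by DESeq2 per the authors' deposited table). Its shoot level was 120.0 normalised counts in +P-HT and 266 in +P-FT. LOC130711142 had 367 normalised counts in -P-HT roots against 800.4 in +P-HT roots, and 380.4 in +P-HT shoots against 1202 in +P-FT shoots. LOC130718813 and LOC130710580 were near the fold limit in both organs. LOC130718813 had 1275 normalised counts in -P-HT roots against 2593 in +P-HT roots, and 282 in +P-HT shoots against 610.2 in +P-FT shoots. LOC130710580 had 834 normalised counts in -P-HT roots against 1820.1 in +P-HT roots, and 225 in +P-HT shoots against 454 in +P-FT shoots.

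**Figure D2:**
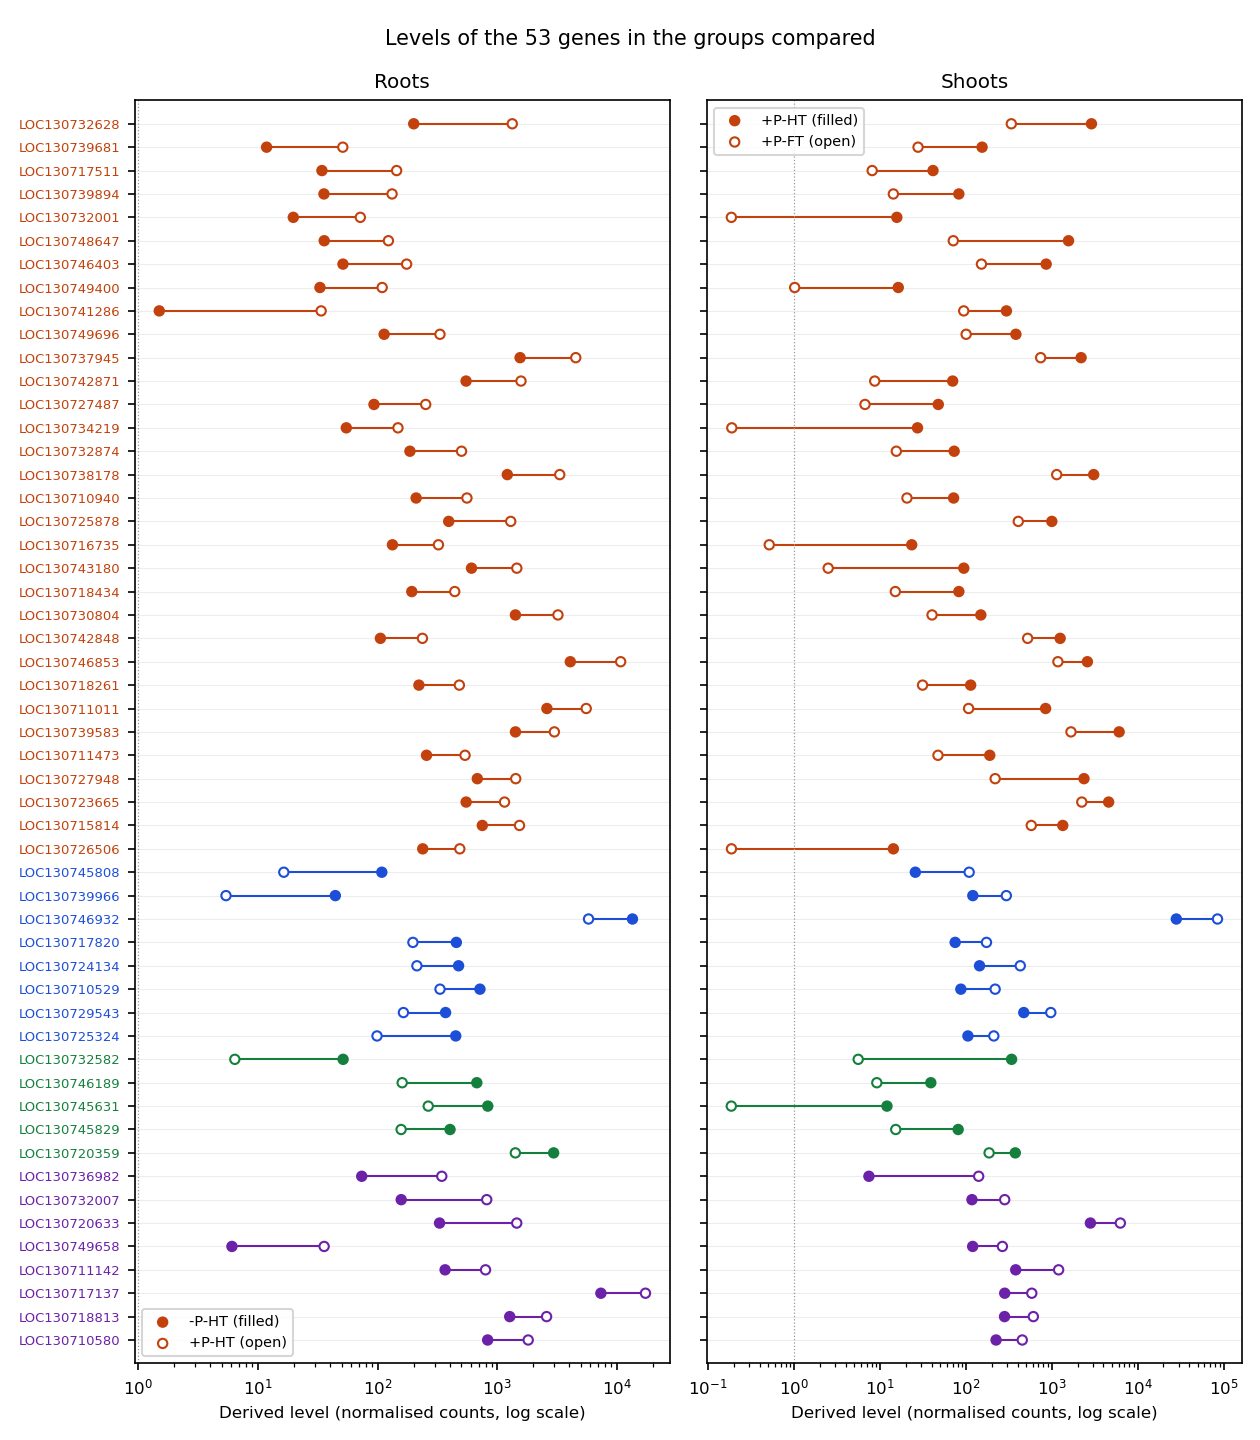
Derived level of each of the 53 genes on a log scale, in normalised counts, in roots (left, -P-HT filled and +P-HT open) and in shoots (right, +P-HT filled and +P-FT open), with colors for the 4 direction classes in the order of the text and a dotted line at 1 normalised count. The filled point lies left of the open one in roots and right of it in shoots for the upper 32 genes, and 5 open points in shoots lie under 1.

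The root changes of the 53 genes were mostly modest. Their median absolute log2 fold change in roots was 1.43, against 1.58 over the 815 listed root genes, and 30 of the 53 (56.6%) were under 1.5, against 46.4% of the root list. In shoots the median was 1.89, against 1.55 over the 1667 listed shoot genes, and 18 of the 53 (34.0%) were under 1.5, against 47.6% of the shoot list. The rule chose the 53 from lists cut by these same folds, so the medians and shares describe the genes chosen. The larger absolute fold was the shoot one in 38 of the 53 genes. At least 4-fold changes in both organs were seen in 7 genes, namely LOC130732628, LOC130739681, LOC130717511, LOC130745808, LOC130732582, LOC130746189 and LOC130736982. Larger folds came with larger standard errors (Spearman's rho 0.67 in roots and 0.79 in shoots, n = 53 genes, a description across genes). The limit on adjusted p admits a gene with a large standard error only if its fold is large. The selection thus builds in such a relation, and nothing further is read from it. The median base mean of the 53 was 363 normalised counts in the root list, where all listed genes had 329, and 193 in the shoot list, where all listed genes had 205. In shoots, the gains of 5.25 and above on the log2 scale belonged to genes with fewer than 50 counts in base mean apart from LOC130732582.

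**Figure D3:**
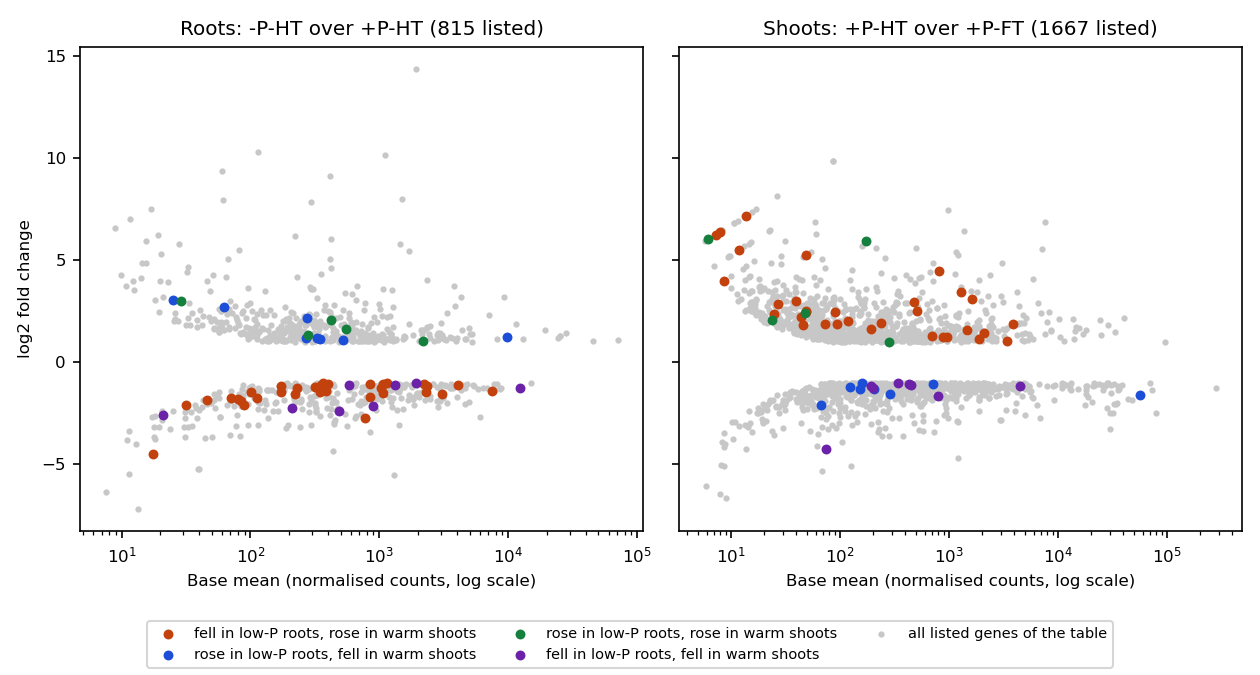
Log2 fold change against base mean (normalised counts, log scale) in roots (left) and shoots (right), with the 53 genes colored by direction class over all listed genes in grey. The 53 span base means of 17.6 to 12395 in roots and 6.12 to 56652 in shoots, and 30 of their 53 root changes lie under 1.5 in absolute log2 fold change.

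The edges of the selection follow from the limits of the lists. Just inside lay LOC130725324, LOC130720359 and LOC130710580, with absolute log2 fold changes of 1.00, 1.01 and 1.01 in shoots per the authors' deposited table. Just outside lay genes that were in the same pair of lists and were barely listed in 1 of the lists that exclude. LOC130739731 had 392.9 normalised counts in -P-FT roots against 168.5 in +P-FT roots, and was kept out by that change (log2 fold change 1.22 ± 0.42, SE, with adjusted p = 0.0344 by DESeq2 per the authors' deposited table). LOC130729819 was kept out by its fall in low-phosphate shoots, at 12.2 normalised counts in -P-HT and 48.2 in -P-FT (log2 fold change -1.98 ± 0.62, SE, with adjusted p = 0.0226 by DESeq2 per the authors' deposited table). LOC130730757 was kept out by a rise in low-phosphate shoots close to the fold limit (log2 fold change 1.02 ± 0.30, SE, per the authors' deposited table), at 595 normalised counts in -P-HT shoots and 294 in -P-FT shoots.

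Absence from a list does not show that a gene did not respond there. If its standard error in roots at the favorable temperature equalled that at the high temperature, a gene such as LOC130741286 could have changed by up to 2.99 on the log2 scale and stayed unlisted. For LOC130745631 in shoots at low phosphate the same reckoning allows up to 5.43. Over the 53 genes the allowance had a median of 1.00 in roots and 1.01 in shoots, so for the middle gene it is at or close to the fold limit. Standard errors of genes in both root lists were larger at the favorable temperature, by a median ratio of 1.18 (542 genes). In shoots the ratio went the other way, with standard errors at low phosphate over those at sufficient phosphate at a median of 0.9499 (294 genes in both shoot lists). The difference of response between temperatures, or between phosphate supplies, was not tested for any of the 53, since their second fold is not listed.

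The mix of directions among the 53 genes is set here beside that of the other 110 genes in the same pair of lists, in the orientation read here. A fall in -P-HT roots with a rise in +P-HT shoots was seen in 60.4% of the 53 genes. It was seen in 26.0% of the 73 genes that the favorable-temperature root list also held, in 35.7% of the 14 that the low-phosphate shoot list also held, and in 30.4% of the 23 found in all 4 lists. Rises in both organs made up 9.43% of the 53 genes and 33.6% of the other 110. These shares depend on the orientation. With the shoot direction turned round, a fall in roots with a rise in shoots would be 15.1% of the 53 genes, against 34.2%, 14.3% and 17.4% of the groups of 73, 14 and 23, and rises in both organs would be 15.1% of the 53 and 10% of the other 110. With the root direction turned round instead, a fall in roots with a rise in shoots would be 9.43% of the 53 genes, against 35.6%, 28.6% and 30.4% of those groups, and rises in both would be 60.4% of the 53 and 28.2% of the other 110. Turning both would make the fall with a rise 15.1% of the 53, against 4.11%, 21.4% and 21.7% of those groups. Rises in both would then be 15.1% of the 53 and 28.2% of the other 110. In the 208 genes listed for roots at the favorable temperature and shoots at sufficient phosphate alone, a fall in roots with a rise in shoots made up 13.5%, and falls in both made up 48.1%. Those shares would change places with the shoot direction turned round. In that pair of comparisons the common treatment, +P-FT, is the one set against in both organs. For the 53 genes, and equally for the other 110, the common treatment +P-HT has opposite roles. The part of the common treatment in the directions was not tested, and no test of the difference in mix was made.

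**Figure D4:**
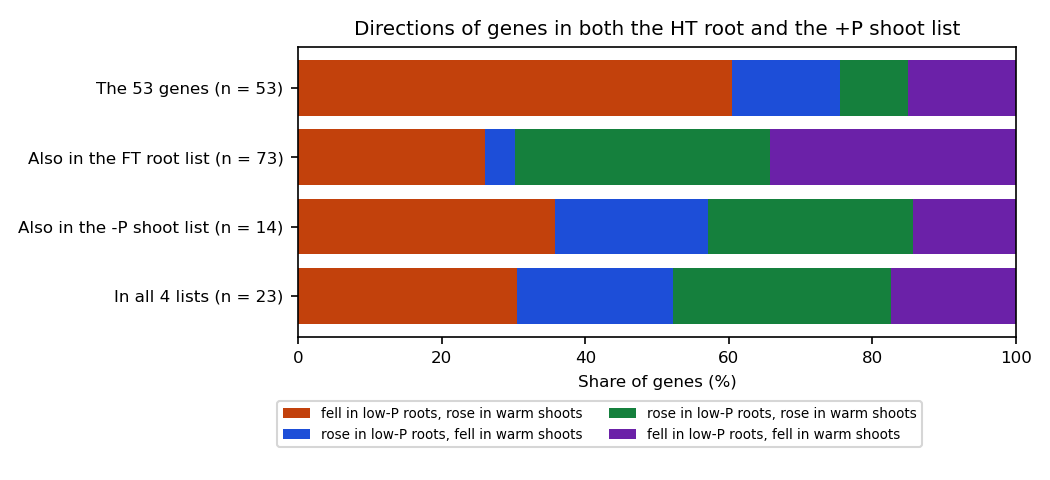
Share of genes (%) in each direction class among genes listed both in roots at the high temperature and in shoots at sufficient phosphate, divided by whether they were also in the favorable-temperature (FT) root list alone, the low-phosphate (-P) shoot list alone, or both. The class that fell in roots and rose in shoots makes up 60.4% of the 53 genes and 26.0 to 35.7% of the other groups in the orientation read here, but 15.1% and 14.3 to 34.2% with the shoot direction turned round. It would be 9.43% and 28.6 to 35.6% with the root direction turned, and 15.1% and 4.11 to 21.7% with both turned.

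No gene of the 53 lies next to another of them in the gene order of the reference annotation. An adjacent protein-coding gene was in at least 1 of the same pair of lists for 16 of the 53 (30.2%), against 20.1% of the 2319 genes found in either list. In shoots, 10 of the 14 adjacent genes listed in the same comparison went the way of their neighbour among the 53 (71.4%), against 77.4% of the 137 adjacent pairs in the whole list. LOC130732582 lies beside LOC130730112, which had 837 normalised counts in +P-HT shoots against 49.5 in +P-FT shoots (log2 fold change 4.08 ± 1.19, SE, per the authors' deposited table). LOC130730112 also rose in low-phosphate shoots, at 566 normalised counts in -P-HT and 24.0 in -P-FT, where LOC130732582 was not listed. LOC130748647 lies beside LOC130748786, which had 3549 normalised counts in +P-HT shoots against 444 in +P-FT shoots. LOC130739583 lies beside LOC130739585, with 22721 normalised counts in +P-HT shoots against 6874 in +P-FT shoots. In roots, all 3 adjacent genes listed in the same comparison fell with their neighbour, where 79.4% of the 34 adjacent pairs of the whole list went the same way. One of them was LOC130736998 beside LOC130736982, at 4.55 normalised counts in -P-HT roots and 29.6 in +P-HT roots. These adjacent genes were singled out after their values were seen, and whether adjacent genes share reads through similar sequence was not tested.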

How the data were processed

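Poly(A) RNA was sequenced as directional 150 bp paired-end libraries, per the labels' protocols. Tools named in the submitters' processing notes are DESeq2 1.44.0, RSEM 1.3.3, Trimmomatic 0.39.2 and FastQC 0.14.0. Neither build nor annotation is given in the sources used here. The authors deposited 4 tables, each their own comparison of a pair of groups. The deposited base mean is a signal value, the mean over libraries of counts divided by size factors, per the file headers. The deposited log2 fold change has its standard error beside it, on the log2 scale. The Wald statistic is a score that the authors deposited, and it equalled fold over standard error in every row, within rounding. The p-value and adjusted p-value are also as the authors deposited them. All rows lay under 0.05 in adjusted p and at 1 or more in absolute log2 fold change.

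No table holds values per library, so no test was made from libraries, no single library could be inspected, and read depth is unknown. Single-gene adjusted p-values are the authors' DESeq2 values. The number of genes tested was recovered by dividing the top gene's adjusted p by its raw p. Each group's level was derived from the base mean and the fold, for 2 libraries a group. Both steps were run on simulated data, where they returned the values put in. For levels this checks the arithmetic only, as the simulated base mean was built by the same formula. The simulated lists had no fold limit, unlike the deposited ones. Tables were read with pandas 2.3.3 in Python 3.11.15, and plots were drawn with matplotlib 3.10.9.

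The members and lists were chosen with earlier results of these data known. Genes are named by a rule: every member of a direction class of up to 9 genes, the 8 with the largest smaller-of-both absolute fold in a larger class, the 3 with the highest base mean in each tissue, the 3 nearest the fold limit, members adjacent to another member, and members with identical rows. Neither of the last kinds occurred. Promoter motifs, protein signatures and lists by gene function were planned but not scored, since the RefSeq gene table of assembly LjGifu_v1.2 used here holds neither sequences nor descriptions. The build of the files is not known to be the same, so that table served for symbols, gene type and gene order, with no coordinates. The alternatives were a stricter fold, a stricter adjusted p, a base mean minimum, identical rows counted once, levels under 1 left out, a turned direction in shoots, roots or both, and a shared raw p limit.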

Additional observations from a re-analysis of the deposited data

How the results depend on the processing

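No paired analysis was possible because single libraries have no values in the deposited tables, and other count tools, low-count filters and left-out replicates were not run for the same reason. Of 69 recomputed values, 38 stayed close to the reported ones and 31 moved. Close meant counts within 1.5 times, medians within the median standard error, and shares within their exact 95% binomial interval. That interval counts genes as independent, though they share libraries, and it is wide in small groups. With the shoot direction turned round, shifts from 35.7% to 14.3% in 14 genes and from 30.4% to 17.4% in 23 genes passed as close. For shares, close is therefore a loose label and not a sign of stability. The values from counting identical rows once are among the 38, and could not move since no such rows occurred. Whether a single value reverses was not decided by these settings. Counts and shares have no sign to reverse, but their order between groups did change with the orientation. The share that fell in roots and rose in shoots was 60.4% of the 53 genes against 28.2% of the other 110. It would be 15.1% against 28.2% with shoots turned round, and 9.43% against 33.6% with roots turned round. With both turned it would be 15.1% against 10%, in the order first read. The signed medians were not recomputed with a direction turned round, which would change the sign of that tissue's median. In the counts that follow, the order is all 53 genes, root fall with shoot rise, root rise with shoot fall, rise in both, fall in both. Absolute log2 fold changes of at least 2 in both tables left 7, 3, 1, 2 and 1 genes, with signed median log2 fold changes of -2.07 in roots and 2.35 in shoots, against -1.19 and 1.86 over all 53. Adjusted p under 0.01 in both tables left 33, 21, 5, 3 and 4. A base mean of at least 100 in both left 27, 14, 6, 1 and 6, and a signed shoot median of 1.04. As these signed medians run over rises and falls together, they move with the mix of directions as well as with the size of the folds. Fold sizes alone were not recomputed, but the base mean limit left out every gene with an absolute shoot log2 fold change over 3.44. Turning the shoot direction round would give 8, 5, 8 and 32 genes in the 4 classes. Turning the root direction instead would give 5, 8, 32 and 8, and turning both 8, 32, 8 and 5, both chosen after seeing the data. The share that fell in roots and rose in shoots would become 10% of the other 110 genes and 4.11% of the group of 73 with both turned, and in the group of 208 it would become 48.1% with shoots turned, 32.2% with roots turned and 6.25% with both turned. A raw p limit shared with the tissue's other table, chosen after seeing the data, left 51 genes. With 2 libraries a group and unknown depth, genes with few counts have folds that are known only roughly.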
